A study of Homo sapiens with 6 samples.

Results

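The genes described here were the D-type cyclins, their kinases CDK4 and CDK6, the CDK inhibitors CDKN1A, CDKN1B, CDKN2A and CDKN2C, and RB1, chosen by gene name from a table of expression values. All 10 genes were listed, of 15897 genes in all, and all 10 passed the filter on low values described below. RNA-seq had been run on 6 libraries of H1650, a line from a human lung adenocarcinoma, to compare cells with and without depletion of SETD2. The 3 control libraries carried the genotype label wild type, and the other 3 were labelled shSETD2, that is, cells carrying short hairpin RNA against SETD2 delivered by lentivirus. The methods describe several hairpins against SETD2 whose numbering is that of the shSETD2 libraries, but no source used here states which hairpin a library carried, so the 3 shSETD2 libraries may differ by hairpin. Values are FPKM, fragments scaled to transcript length and to the mapped reads of the library, so that levels of different genes are compared per length. FPKM do not show how many fragments stand behind a value, and precision can be judged only from 3 libraries a group. Nothing says that the 3 libraries of a group came from separate cultures, and the p-values then measure the spread between these samples, which may be technical.

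D-type cyclins bind CDK4 or CDK6, and the active kinase phosphorylates the retinoblastoma protein RB1, which releases E2F transcription factors and lets the genes of DNA replication be transcribed. The INK4 proteins, among them the products of CDKN2A and CDKN2C, bind CDK4 and CDK6 and keep the cyclins away. The CIP/KIP proteins p21 (CDKN1A) and p27 (CDKN1B) inhibit CDK2 complexes and also take part in the assembly of cyclin D with its kinase. In lung cancer this pathway is often disturbed, through loss of CDKN2A or RB1 or through high levels of cyclin D1.

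The lung label was set against defining markers first. Of 12 lung epithelium markers, 9 were not in the table, surfactant genes, NAPSA and SLC34A2 among them. The summed FPKM of the 3 listed ones was 15.7 ± 0.202 (SD, n = 3) in control against 9.55 ± 0.205 (SD, n = 3) in the libraries labelled shSETD2. Most of it came from ABCA3, a lipid transporter of alveolar cells, at an FPKM of 13.3, 13.5 and 13.7 in control and 8.51, 8.18 and 8.26 in shSETD2. LAMP3, a lysosomal membrane protein, went the other way, with 0.646, 0.657 and 0.449 in control and 1.25, 1.18 and 1.27 in shSETD2. NKX2-1, the lineage factor of the lung, had an FPKM of 1.71, 1.80 and 1.44 in control and was listed at 0 in all 3 shSETD2 libraries. Of 12 epithelium markers, 11 were listed, and their sum was 16.1 ± 1.12 (SD, n = 3) in control against 438 ± 27.3 (SD, n = 3) in shSETD2. The keratin KRT18 was the most abundant of them in every library, and KRT7 was at most 0.0375 in control and at least 77.0 in shSETD2. Other epithelium markers were lower in shSETD2 with no overlap. CDH1, the gene of E-cadherin, had an FPKM of 1.52, 1.43 and 0.860 in control and at most 0.0140 in shSETD2, and EPCAM had 0.716, 0.830 and 0.582 in control and 0.166, 0.301 and 0.193 in shSETD2. CLDN7 was at 0.219, 0.0920 and 0.266 in control and at or near 0 in shSETD2.

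Markers of other tissues also differed between the groups. All 10 kidney lineage markers were listed, with a summed FPKM of 32.1 ± 2.56 (SD, n = 3) in control against 50.6 ± 5.23 (SD, n = 3) in shSETD2. SALL1, SIX2 and EYA1 were present in control and listed at 0 in all 3 shSETD2 libraries, while PAX8 was at most 0.0368 in control and 35.2, 28.1 and 29.2 in shSETD2. The 5 listed neuronal markers of 8 summed to 98.0 ± 3.70 (SD, n = 3) in control against 2.66 ± 0.0695 (SD, n = 3) in shSETD2, and NEFM, the most abundant, was listed at 0 in shSETD2 together with NEFL, INA and UCHL1. SYP, the remaining one, went the other way with no overlap, with 2.56, 2.04 and 1.82 in control and 2.59, 2.67 and 2.73 in shSETD2. The 4 listed fibroblast markers of 8, led by COL1A1, summed to 4.21 ± 0.279 (SD, n = 3) and 0.314 ± 0.0244 (SD, n = 3). The 2 listed leukocyte markers of 8, led by CD68, summed to 1.43 ± 0.162 (SD, n = 3) and 2.06 ± 0.166 (SD, n = 3). These markers moved with the group labels, so the part of such differences in every result below was not tested. In bulk RNA, fewer cells of a type and less RNA per cell cannot be told apart.

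SETD2, the methyltransferase that places trimethylation on lysine 36 of histone H3, checks the labels. Its FPKM was 17.99, 10.2 and 17.6 in control and 8.97, 8.09 and 12.2 in the libraries labelled shSETD2. The groups overlapped, since control 2 lay below shSETD2 replicate 3. The log2 fold change was -0.58 ± 0.24 (SE), with a limma adjusted p of 0.064 over all genes tested, past the threshold of 0.05 only without control replicate 2 (log2 fold change -0.83) or without shSETD2 replicate 3 (log2 fold change -0.73) among the libraries left out in turn. With median ratio scaling the log2 fold change was -0.25, with a limma adjusted p of 0.38. Over all 14 other settings the adjusted p of SETD2 lay between 0.0067 and 0.38. The groups are therefore called by their labels. Markers such as NEFM, PAX8 and KRT7 separated the groups completely while SETD2 did not, and whether the libraries differ in more than SETD2 depletion, the cells they were made from included, was not tested. In every comparison of shSETD2 with control below, depletion of SETD2 and any such difference cannot be told apart.

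Across the table the labelled groups were far apart. At a mean FPKM of 0.5 or more, 14068 genes were tested, and 3774 genes were higher and 7283 lower in shSETD2 at a limma adjusted p under 0.05, which is 26.8% and 51.8% of the genes tested and 78.6% in both directions. Because 1 was added to each FPKM before taking log2, log2 fold changes come out too small for genes of low FPKM. Over all genes the log2 fold change had a median of -0.29 as deposited, -0.01 after each library was divided by its median ratio to the geometric mean, and -0.11 after quantile normalization. With median ratio scaling the split was 5305 higher and 5394 lower, or 37.7% and 38.3%, and with quantile normalization 4565 higher and 6013 lower. Small changes among the members therefore have to be read relative to that shift.

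Of the 10 members, 3 were higher (CCND1, CDKN1A and CCND3) and 4 lower (CCND2, CDKN2A, CDKN2C and CDKN1B) in shSETD2, and CDK4, CDK6 and RB1 did not pass. These 7 of 10 stand beside the 78.6% of all genes that passed. Under median ratio scaling 6 members were higher and 3 lower, beside 37.7% and 38.3% of all genes, and with quantile normalization 4 were higher and 3 lower, beside 4565 and 6013 of 14068 genes. In 8 of 10 members the 3 values of one group lay entirely above those of the other, beside 80.9% of all genes tested. The median log2 fold change of the members was 0.00 as deposited and 0.34 with median ratio scaling. The direction of CCND1, CCND2, CCND3, CDKN1A, CDKN2A, CDKN2C and RB1 was kept under both other scalings, while those of CDK6 and CDKN1B turned with median ratio scaling and that of CDK4 with quantile normalization.

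**Figure D1:**
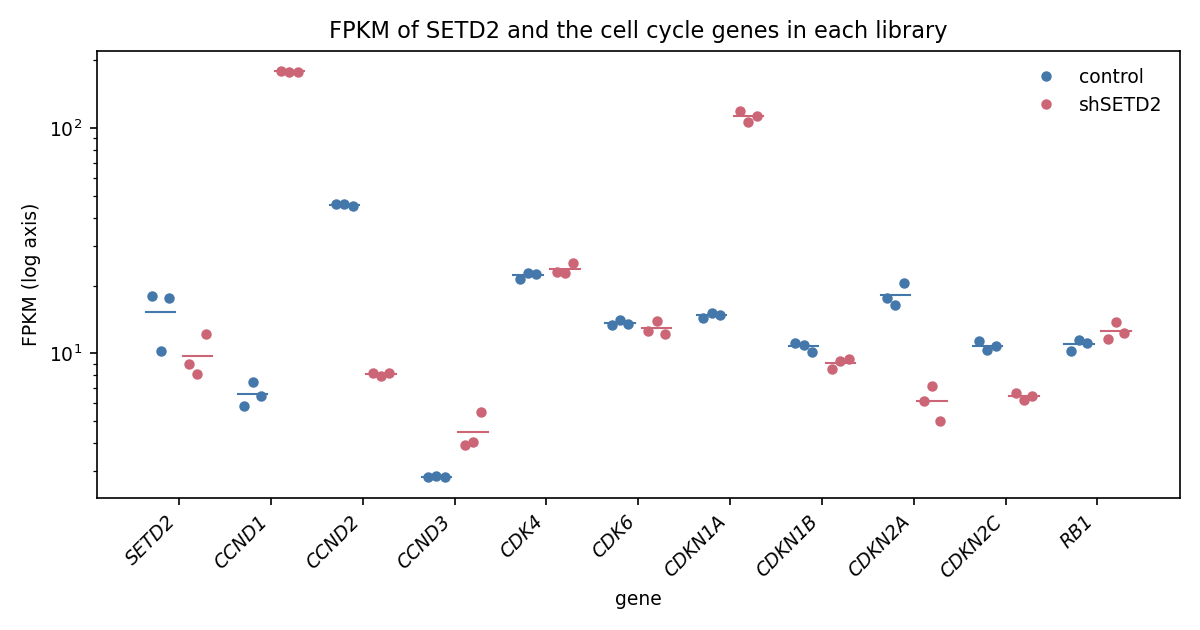
FPKM (log axis) of SETD2 and the 10 genes in each of the 3 control and 3 shSETD2 libraries, each point a library and each line a group mean. CCND1 and CDKN1A sit near 178 and 113 in shSETD2, CCND2 near 45.6 in control, and the groups overlap for SETD2, CDK4 and CDK6.

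Among the cyclins, CCND1, which encodes cyclin D1 (chr11:69455855-69469242 in GRCh37, plus strand), had an FPKM of 5.82, 7.47 and 6.45 in control and 178.9, 177.8 and 177.8 in shSETD2. All 3 shSETD2 libraries were high and within a CV of 0.363% of each other, where the median CV of all genes in that group was 8.32%. The group means differed by 27.1-fold, with a log2 fold change of 4.57 ± 0.079 (SE) and a limma adjusted p of 5.5e-08. By size of change CCND1 ranked 103 of 14068 genes, and its level went from percentile 58.5 of the genes tested in control to percentile 99.3 in shSETD2.

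CCND2, the gene of cyclin D2 (chr12:4382938-4414516, plus strand), went the other way, with an FPKM of 45.9, 45.9 and 45.01 in control and 8.17, 7.91 and 8.20 in shSETD2. All 3 control libraries were high, and the gap between the groups was far wider than the spread within either. The control mean was 5.63-fold the shSETD2 mean, and the log2 fold change was -2.36 ± 0.037 (SE), with a limma adjusted p of 4.2e-08. Its percentile among the genes tested was 96.6 in control and 67.7 in shSETD2.

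CCND3, the gene of cyclin D3 (chr6:41902671-42018095, minus strand), was the least abundant of the cyclins in control, with an FPKM of 2.82, 2.87 and 2.83, and had 3.93, 4.05 and 5.49 in shSETD2. The groups did not overlap, and shSETD2 replicate 3 was the highest library. The log2 fold change was 0.50 ± 0.11 (SE), with a limma adjusted p of 0.0055, and lay 0.79 above the median of all genes. It was 0.78 with median ratio scaling and 0.76 with quantile normalization.

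The cyclin that made up most of the summed D-type cyclin FPKM thus differed between the labelled groups. CCND1 held 10.7%, 13.3% and 11.9% of the sum in control and 93.7%, 93.7% and 92.9% in shSETD2. CCND2 held 84.1%, 81.6% and 82.9% in control and 4.28%, 4.17% and 4.28% in shSETD2, and CCND3 went from 5.16% ± 0.0629 (SD, n = 3) to 2.35% ± 0.446 (SD, n = 3). None of these shares overlapped between the groups, and each reached an exact two-sided permutation p of 0.1, the smallest that 3 against 3 libraries allow. A share is taken within a library and is not moved by a factor common to its genes, such as that of median ratio scaling. Shares after quantile normalization, which does not move all genes of a library alike, were not computed.

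**Figure D2:**
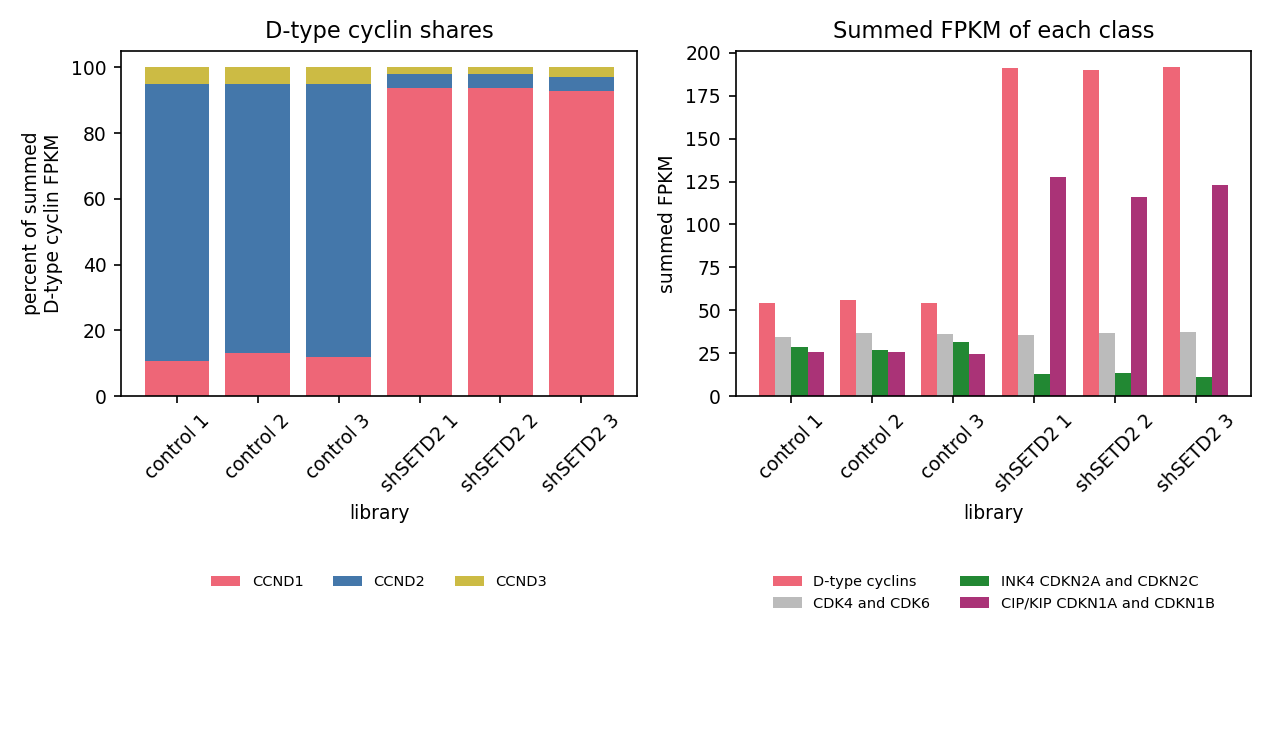
Left, the percent of the summed D-type cyclin FPKM held by CCND1, CCND2 and CCND3 in each library, and right, the summed FPKM of each class of genes, with no error bars since each bar is 1 library. CCND2 fills at least 81.6% of each control bar and CCND1 at least 92.9% of each shSETD2 bar, and the sum of CDK4 and CDK6 as deposited stays between 34.6 and 37.3.

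The kinases differed between the groups by less than the cyclins did. CDK4 (chr12:58141510-58149796, minus strand) had an FPKM of 21.3, 22.8 and 22.5 in control and 23.1, 22.7 and 25.2 in shSETD2, and the groups overlapped. Its log2 fold change was 0.09 ± 0.054 (SE), with a limma adjusted p of 0.19. It was 0.43 and past the threshold with median ratio scaling and -0.07, the other direction, with quantile normalization, and it was 0.06 without control replicate 1 and 0.04 without shSETD2 replicate 3. CDK6 (chr7:92234235-92465908, minus strand) had an FPKM of 13.4, 14.1 and 13.6 in control and 12.6, 14.0 and 12.1 in shSETD2. These groups overlapped too, with a log2 fold change of -0.08 ± 0.061 (SE) and a limma adjusted p of 0.27. The value was 0.25 and past the threshold with median ratio scaling, and without shSETD2 replicate 2 it was -0.13 with an adjusted p of 0.042, in a range of 0.0070 to 0.60 over all other settings. Without shSETD2 replicate 3 it was -0.04. CDK6 made up 38.6%, 38.2% and 37.5% of the CDK4 plus CDK6 FPKM in control and 35.4%, 38.1% and 32.5% in shSETD2, overlapping shares with an exact two-sided permutation p of 0.2.

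RB1, the substrate of these kinases (chr13:48877887-49056122, plus strand), had an FPKM of 10.2, 11.51 and 11.1 in control and 11.54, 13.7 and 12.3 in shSETD2. The groups met without overlapping. The log2 fold change was 0.18 ± 0.076 (SE), with a limma adjusted p of 0.069, which did not pass. Among the other scalings and the libraries left out in turn, it passed with median ratio scaling (0.50), with quantile normalization (0.21) and without shSETD2 replicate 1 (0.23), all in the same direction. It was 0.11 and did not pass without shSETD2 replicate 2, and the adjusted p ran from 0.00085 to 0.19 over all other settings.

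**Figure D3:**
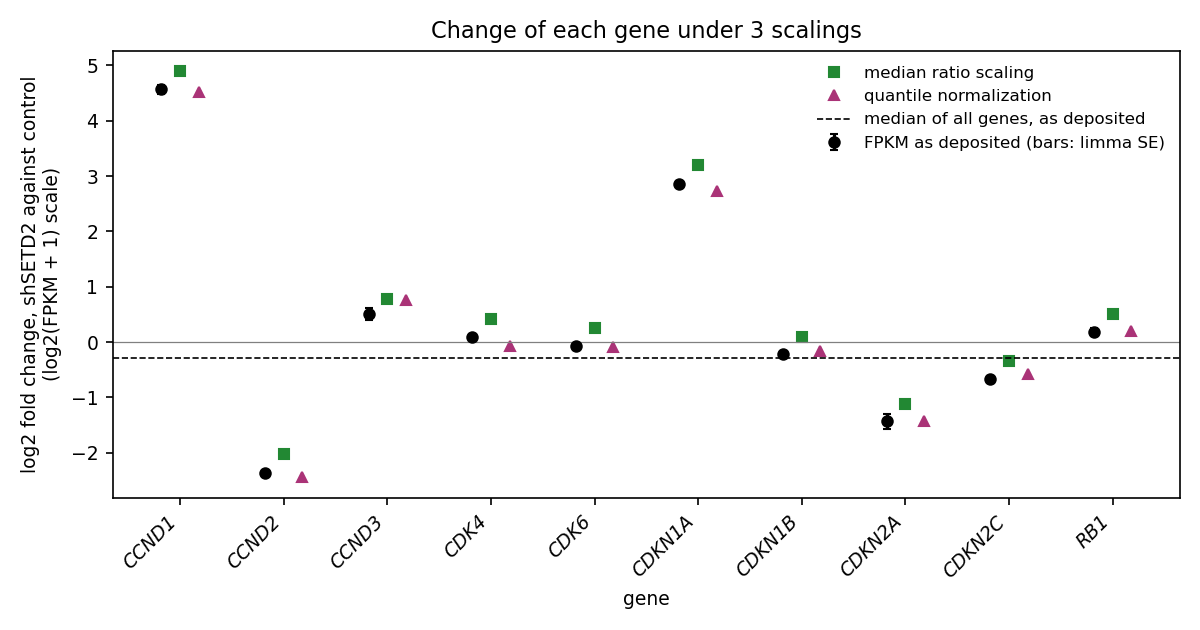
Log2 fold change of each of the 10 genes, shSETD2 against control on the log2(FPKM + 1) scale, as deposited with its limma SE and under the other scalings, with the median of all genes as deposited (-0.29) as a dashed line. CCND1, CDKN1A, CCND3 and RB1 lie above 0 and CCND2, CDKN2A and CDKN2C below 0 under all 3 scalings, while the signs of CDK4, CDK6 and CDKN1B depend on the scaling.

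Of the CIP/KIP inhibitors, CDKN1A, which encodes p21 (chr6:36644237-36655116, plus strand), had an FPKM of 14.4, 15.1 and 14.7 in control and 119.0, 106.8 and 113.3 in shSETD2. All 3 shSETD2 libraries were high, by 7.66-fold over the control mean. The log2 fold change was 2.86 ± 0.049 (SE), with a limma adjusted p of 5.4e-08, and CDKN1A ranked 475 of 14068 by size of change. CDKN1B, which encodes p27 (chr12:12867992-12875305, plus strand), had 11.1, 10.9 and 10.2 in control and 8.48, 9.23 and 9.46 in shSETD2, lower with no overlap. Its log2 fold change was -0.22 ± 0.059 (SE), with a limma adjusted p of 0.012, but it lay 0.07 above the median of all genes and turned to 0.10, not past the threshold, with median ratio scaling. With quantile normalization it was -0.15 with an adjusted p of 0.058, and the adjusted p ranged from 0.012 to 0.18 over all other settings. CDKN1A made up 57.9% ± 1.36 (SD, n = 3) of the FPKM of this pair in control and 92.6% ± 0.688 (SD, n = 3) in shSETD2, with no overlap and an exact two-sided permutation p of 0.1, the smallest possible.

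Both INK4 genes among the members, CDKN2A and CDKN2C, were lower in shSETD2. CDKN2B and CDKN2D, INK4 genes outside the members, overlapped between the groups and did not pass as deposited. CDKN2A (chr9:21967752-21995300, minus strand) encodes p16INK4a and, from a separate first exon and reading frame, p14ARF, and its FPKM pools both transcripts. It had 17.5, 16.4 and 20.6 in control and 6.16, 7.19 and 5.01 in shSETD2. The control values were high and did not overlap those of shSETD2, and the log2 fold change was -1.43 ± 0.13 (SE), with a limma adjusted p of 7.8e-05. CDKN2C, which encodes p18INK4c (chr1:51426417-51440305, plus strand), had 11.4, 10.4 and 10.8 in control and 6.65, 6.24 and 6.47 in shSETD2. Its 3 shSETD2 values were all below control, and the log2 fold change was -0.67 ± 0.052 (SE), with a limma adjusted p of 3.5e-05. Relative to the median of all genes these changes were -1.14 for CDKN2A and -0.38 for CDKN2C, and with median ratio scaling that of CDKN2C was -0.35, still past the threshold.

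Promoter windows from RefSeq (GRCh38.p14), 250 bases before to 50 after a start site, were given for 8 of the 10 genes, in 14 windows, and were missing for CCND1 and CCND2. The windows of CDKN1A and CDKN2A are shown, since these inhibitors moved in opposite directions and CDKN2A has a window for each of its first exons. Each matched GRCh37 exactly at 1 place, at chr6:36646241-36646540 (plus strand) for CDKN1A, at chr9:21974807-21975106 (minus strand) for the p16INK4a side and at chr9:21995274-21995573 (minus strand) for the p14ARF side. Capitals mark GGGCGG, the core of an Sp1 site, on either strand.
CDKN1A: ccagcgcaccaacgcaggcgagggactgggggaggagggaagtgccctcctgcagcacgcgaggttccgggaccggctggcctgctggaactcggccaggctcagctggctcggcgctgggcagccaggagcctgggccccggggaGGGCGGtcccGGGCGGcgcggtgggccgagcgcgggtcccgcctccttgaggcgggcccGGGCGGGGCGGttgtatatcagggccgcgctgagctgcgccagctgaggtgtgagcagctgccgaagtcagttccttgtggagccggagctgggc
CDKN2A, p16INK4a side: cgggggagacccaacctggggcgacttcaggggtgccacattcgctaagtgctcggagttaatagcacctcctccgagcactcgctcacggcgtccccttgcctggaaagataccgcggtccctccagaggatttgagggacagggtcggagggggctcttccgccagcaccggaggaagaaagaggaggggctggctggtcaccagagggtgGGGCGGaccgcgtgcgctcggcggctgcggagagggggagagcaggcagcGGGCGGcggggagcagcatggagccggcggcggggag
CDKN2A, p14ARF side: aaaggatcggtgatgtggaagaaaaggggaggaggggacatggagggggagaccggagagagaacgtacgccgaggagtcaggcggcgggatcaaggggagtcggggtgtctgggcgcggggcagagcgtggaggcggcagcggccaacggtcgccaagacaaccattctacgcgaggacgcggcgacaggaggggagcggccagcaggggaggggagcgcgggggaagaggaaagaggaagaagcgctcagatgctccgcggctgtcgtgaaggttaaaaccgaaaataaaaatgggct
The CDKN1A window held 4 matches to GGGCGG, the p16INK4a window 2 and the p14ARF window 0, and their GC contents were 74.3%, 69.0% and 63.3%, where the median of all windows was 58.7%. GGGCGG was found on either strand in 9 of the 14 windows and in 44.95% of all 35116 windows of the same length. The E2F motif TTTNGCGC was in 0 of the 14 and in 1.79% of all, the AP-1 motif TGANTCA in 1 of the 14 and in 7.71% of all and TATAAA in 0 of the 14 and in 11.5% of all. The only RB1 window, at chr13:49050336-49050635 (plus strand), lies far inside the gene, at the start of other than its canonical transcript, and the AP-1 match was in it, so no window covers the start of RB1 either. A match is a description of these letters in this window, not of binding.

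Summed by class, the balance of the pathway's RNA differed between the groups. The D-type cyclins summed to an FPKM of 54.5, 56.3 and 54.3 in control and 191.0, 189.8 and 191.5 in shSETD2. The CIP/KIP pair summed to 25.5, 26.1 and 24.9 in control and 127.4, 116.1 and 122.8 in shSETD2, and the INK4 pair to 28.9, 26.8 and 31.4 in control and 12.8, 13.4 and 11.5 in shSETD2. These 3 sums did not overlap between the groups, each with an exact two-sided permutation p of 0.1, the smallest possible. CDK4 plus CDK6 summed to 35.9 ± 1.16 (SD, n = 3) and 36.5 ± 0.802 (SD, n = 3), overlapping, with an exact two-sided permutation p of 0.6. The difference, shSETD2 minus control, was 0.656, and it ranged from 0.0316 without control replicate 1 to 1.175 without control replicate 2, with 0.288 without shSETD2 replicate 3 and 1.08 without shSETD2 replicate 1. With median ratio scaling it was 9.57, from sums of 31.6 ± 0.978 (SD, n = 3) for control against 41.2 ± 1.10 (SD, n = 3) for shSETD2 that did not overlap, with an exact two-sided permutation p of 0.1, so whether this sum differed depends on the scaling. Per unit of that kinase sum, the D-type cyclin sum was 1.53 ± 0.0360 (SD, n = 3) in control against 5.22 ± 0.115 (SD, n = 3) in shSETD2. The sum of the CIP/KIP pair per kinase sum was 0.711 ± 0.0237 (SD, n = 3) and 3.34 ± 0.207 (SD, n = 3). That of the INK4 pair was 0.809 ± 0.0750 (SD, n = 3) and 0.344 ± 0.0317 (SD, n = 3). The INK4 pair leaves out CDKN2B and CDKN2D and includes the p14ARF transcripts pooled in CDKN2A. These are ratios of RNA, and protein was not measured here.

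Ordered by FPKM in control, CCND2 came first at 45.6 ± 0.519 (SD, n = 3), then CDK4 at 22.2 ± 0.825 (SD, n = 3) and CDKN2A at 18.2 ± 2.16 (SD, n = 3). CDKN1A and CDK6 followed, and then RB1, CDKN2C and CDKN1B at 10.9, 10.8 and 10.7, which did not differ beyond their spread. CCND1 at 6.58 ± 0.833 (SD, n = 3) and CCND3 came last. In shSETD2 the order was led by CCND1 at 178 ± 0.647 (SD, n = 3) and CDKN1A at 113 ± 6.07 (SD, n = 3), ahead of CDK4 at 23.6 ± 1.33 (SD, n = 3). CDK6 and RB1, at 12.9 and 12.5, did not differ beyond their spread, nor did CDKN2C and CDKN2A at 6.45 and 6.12, and CCND3 was again last at 4.49 ± 0.866 (SD, n = 3).

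The genes that act with or downstream of the members were grouped in 6 lists with 67 genes in all, all of them tested. In shSETD2, 16 passed upward and 36 downward, beside 26.8% and 51.8% of all genes, and the median log2 fold change was -0.26 beside -0.29 for all genes. With median ratio scaling the split was 28 higher and 22 lower, beside 37.7% and 38.3% of all genes, and the median turned to 0.07 beside -0.01 for all genes. The count of each single list stands beside the same shares, and none is read as particular to its list.

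Of the 8 genes of the E-type and A-type cyclins, CDK2 and its activators, 1 was higher and 6 were lower, with a median log2 fold change of -0.41, beside 26.8% and 51.8% of all genes. With median ratio scaling the counts were 2 and 3, beside 37.7% and 38.3%, and the median was -0.10. The phosphatase gene CDC25A, which removes inhibitory phosphate from CDK2, fell from an FPKM of 42.9 ± 0.502 (SD, n = 3) to 8.62 ± 0.122 (SD, n = 3), and CCNA2, the cyclin of S phase, from 40.4 ± 1.66 (SD, n = 3) to 23.1 ± 1.25 (SD, n = 3), a log2 fold change of -0.78 that was -0.44 with median ratio scaling. CCNH, a subunit of the CDK-activating kinase, fell from 15.6 ± 0.516 (SD, n = 3) to 6.32 ± 0.848 (SD, n = 3). CCNE1, the cyclin E gene that follows cyclin D in G1, had a log2 fold change of -0.47 ± 0.081 (SE) with a limma adjusted p of 0.0018, which was -0.16 and not past the threshold with median ratio scaling (adjusted p 0.11, in a range of 0.00042 to 0.11 over all other settings). CCNE2, the other cyclin E gene, had an FPKM of 4.74, 5.59 and 5.71 in control and 5.46, 6.16 and 5.78 in shSETD2, overlapping groups. Its log2 fold change was 0.10 ± 0.079 (SE), with a limma adjusted p of 0.28, and it passed upward with median ratio scaling (0.40, adjusted p 0.0032) and with quantile normalization (0.26, adjusted p 0.030), in a range of 0.0032 to 0.695 over all other settings. It was 0.03 without control replicate 1 and 0.06 without shSETD2 replicate 2. Among the 3 other INK4 and CIP/KIP inhibitors, 0 were higher and 1 was lower, beside the same 26.8% and 51.8%. It was CDKN1C, at an FPKM of 1.17 ± 0.210 (SD, n = 3) and 0.279 ± 0.0861 (SD, n = 3). Its log2 fold change was -0.76, and -0.29 with quantile normalization. The median of the list was -0.32, and -0.04 with median ratio scaling, where 1 was higher and 1 lower. Without shSETD2 replicate 3 the lower count was 2.

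Of 12 pocket proteins and E2F family genes, 3 were higher and 6 lower, with a median of -0.18, and 6 were higher and 3 lower, with a median of 0.14, the other sign, with median ratio scaling, beside 26.8% and 51.8% of all genes as deposited and 37.7% and 38.3% so scaled. E2F7, a repressor of E2F targets, rose from an FPKM of 9.72 ± 0.423 (SD, n = 3) to 24.5 ± 0.902 (SD, n = 3). E2F5, TFDP2 (an E2F dimerization partner) and E2F2 fell, by 1.74, 1.72 and 0.83 on the log2 scale, and the value of E2F2 was -0.52 with median ratio scaling. Of 24 E2F target genes of the G1/S transition, 4 were higher and 16 lower, with a median of -0.50, and 7 and 12, with a median of -0.16, with median ratio scaling, beside the same shares of all genes. The DNA polymerase subunit POLA1 fell from 23.9 ± 0.687 (SD, n = 3) to 7.75 ± 0.559 (SD, n = 3). RRM1, a ribonucleotide reductase subunit, fell by 1.29 on the log2 scale, while TK1, thymidine kinase, rose from 19.7 ± 2.18 (SD, n = 3) to 53.7 ± 1.53 (SD, n = 3).

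Of the 10 ubiquitin ligases and kinases that act on D-type cyclins and p27, 2 were higher and 5 lower, with a median of -0.12, and 5 and 3, with a median of 0.20, the other sign, with median ratio scaling, beside 26.8% and 51.8% of all genes as deposited and 37.7% and 38.3% so scaled. SKP2, the subunit that recognizes p27 for degradation, fell from an FPKM of 17.5 ± 1.05 (SD, n = 3) to 9.10 ± 0.259 (SD, n = 3). CUL1, the scaffold of the same ligase, fell by 0.80 and FBXW7, which recognizes cyclin E, by 0.58 on the log2 scale, and FBXO4 rose from 1.82 ± 0.229 (SD, n = 3) to 3.21 ± 0.178 (SD, n = 3). Under median ratio scaling the log2 fold change was -0.54 for SKP2 in place of -0.87, -0.46 for CUL1 and -0.31 for FBXW7, all past the threshold. With quantile normalization it was -0.28 for FBXW7, and for FBXO4 0.91 in place of 0.58. Of 10 G2/M genes, 6 were higher and 2 lower, with a median of 0.31, and 7 and 0, with a median of 0.65, with median ratio scaling, beside the same shares of all genes. CDC20 rose from 34.5 ± 1.02 (SD, n = 3) to 79.3 ± 4.10 (SD, n = 3), AURKA from 16.9 ± 3.86 (SD, n = 3) to 36.9 ± 9.74 (SD, n = 3) and CCNB1 from 32.8 ± 1.39 (SD, n = 3) to 62.0 ± 1.20 (SD, n = 3). CDK1, the kinase that the product of CCNB1 acts with, fell by 0.35 on the log2 scale. This value was -0.01 and not past the threshold with median ratio scaling. With quantile normalization the value of CDK1 was -0.55 and past the threshold. The lower G2/M count was 1 without control replicate 2 and 1 without shSETD2 replicate 3.

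**Figure D4:**
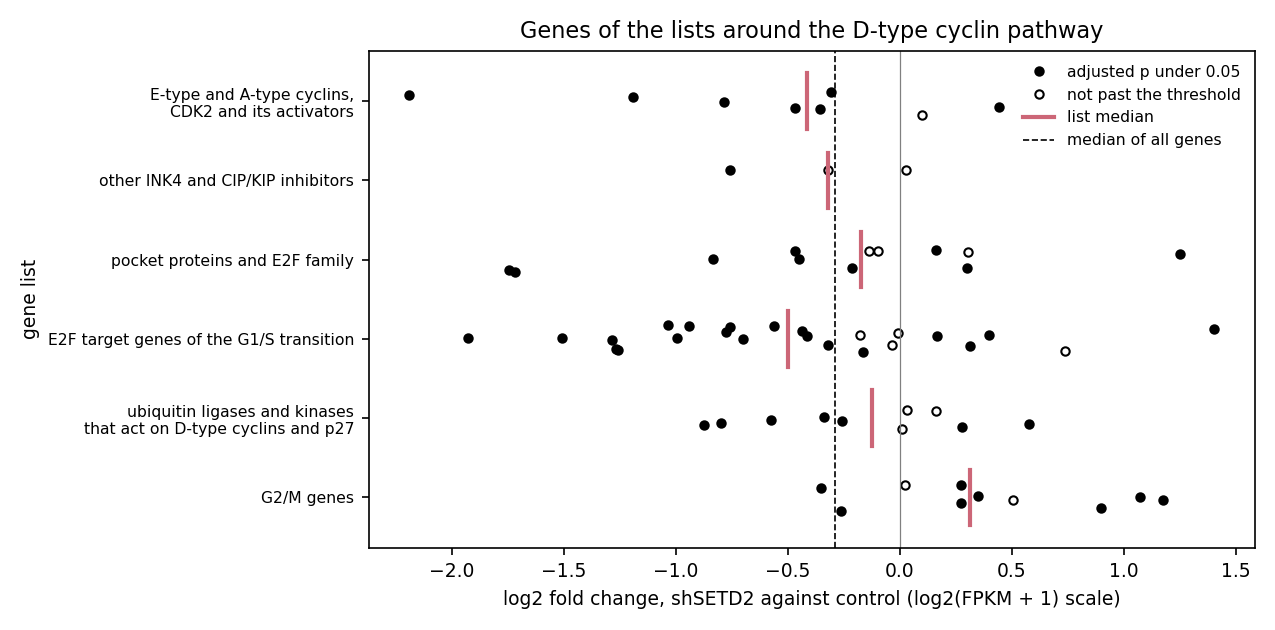
Log2 fold change of each gene of the 6 lists, shSETD2 against control on the log2(FPKM + 1) scale, filled where the limma adjusted p was under 0.05 and open where it was not, with list medians as bars and the median of all genes (-0.29) as a dashed line. The E2F targets have a median of -0.50 and the G2/M genes one of 0.31 as deposited, and -0.16 and 0.65 with median ratio scaling, which is not drawn.

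Genes with values most like those of the 3 members with the largest changes were found by Euclidean distance in log2(FPKM + 1) over the 6 libraries, among 14058 genes. For CCND1 they were SDC4, SHC1 and CAVIN1, at distances of 0.463, 0.480 and 0.797. For CDKN1A they included TXNRD1 and BASP1, at 0.616 and 0.690. For CCND2 they were CDC25A, LUC7L3 and RBM26, at 0.213, 0.523 and 0.651.

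Genes within 500 kb of a member on the same chromosome did not all move with it, and their counts stand beside the 26.8% of all genes that were higher and the 51.8% that were lower. Of the 3 tested around CCND1, 2 were higher and 1 was lower, and of the 6 around CCND2, 1 was higher and 4 were lower. Of 13 tested around CCND3, 4 were higher and 5 lower, of 27 around CDK4 10 and 12, and of 12 around CDK6 4 and 6. Around CDKN1B 2 were higher and 5 lower of 12, and around CDKN2C 1 was higher and 3 were lower of 4. Around CDKN1A 3 were higher and 3 lower of 8 tested, and around RB1, which did not pass, 0 were higher and 8 lower of 8. Around CDKN2A, 7 genes were listed and 6 tested, of which 0 were higher and 2 lower. MTAP, a gene of methionine salvage 30.1 kb away, had an FPKM of 3.20, 2.75 and 2.20 in control and 1.18, 1.12 and 1.14 in shSETD2, and AL359922.3, 73.9 kb away, had 2.72, 2.67 and 2.84 in control and 0.620, 1.23 and 0.999 in shSETD2. Both were lower with no overlap. CDKN2B, the INK4 gene 7.60 kb away, had 1.95, 2.12 and 2.04 in control and 1.85, 2.23 and 2.22 in shSETD2, overlapping groups with a log2 fold change of 0.03 ± 0.070 (SE) and a limma adjusted p of 0.73. It passed upward with median ratio scaling (0.27, adjusted p 0.013) and with quantile normalization (0.38, adjusted p 0.0026), and the adjusted p ran from 0.0026 to 0.996 over all other settings. Without shSETD2 replicate 2 or without shSETD2 replicate 3 the log2 fold change was -0.0025 and -0.00059, the other direction. MIR31HG, AL449423.1 and AL359922.1 did not pass either, and DMRTA1 was under the filter, at 0.187 ± 0.0193 (SD, n = 3) and 0.794 ± 0.0900 (SD, n = 3). Among the genes listed, AL359922.1 overlaps CDKN2A on the other strand, as ORAOV1 overlaps CCND1 and TSPAN31 and MARCH9 overlap CDK4. The library kit was stranded, but the sources do not say whether quantification used the strand, so reads of these genes and of the members cannot be told apart with certainty. AC008115.3 lies inside CDKN1B on the same strand (chr12:12871907-12872455), where strand separates no reads, and had an FPKM of 0.726, 1.21 and 2.30 in control and 0.912, 0.737 and 0.629 in shSETD2, overlapping groups with a limma adjusted p of 0.15. The annotation places 16 further genes over members that matched no gene listed, 4 on the same strand (over CCND2, CCND3 and CDK6) and 12 on the other, CDKN2B-AS1 over CDKN2A among them, and how their reads were assigned was not stated. CDKN2A and CDKN2B also share closely similar sequence, and how reads that match both were assigned was not stated.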

How the data were processed

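RNA-seq of 3 control and 3 shSETD2 libraries of H1650 was used. Per the submitters' processing notes and the study's methods, reads were mapped to hg19 (GRCh37) with HISAT2 and genes quantified with Ballgown, with versions not given in the sources used here. The authors deposited FPKM for each gene and library. A second deposited table repeats these and adds the authors' own comparison (log2 fold change, fold change, p and q), which was not used. Depth was unknown: among the 1000 lowest genes of each pair of libraries of a group, at most 8 shared a ratio within 0.1%, so no step of whole reads was found.

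A filter kept genes whose FPKM averaged 0.5 or more. The groups were compared on log2(FPKM + 1) by limma (version 3.58.1, R 4.3.3), using lmFit followed by eBayes with trend, with Benjamini-Hochberg adjustment over all 14068 genes and a threshold of 0.05. The procedure was tested on simulated data in which 200 of 14068 genes were changed. It called 93 of the 102 changed genes of higher level and 11 of 13868 unchanged genes. Calls where most genes change or the median shifts, as in these data, were not tested. Shares and sums were compared with exact two-sided permutation tests over libraries. Promoter sequences came from RefSeq (GRCh38.p14) and were placed in GRCh37 by exact match, and overlapping genes came from the positions in the deposited table and the GENCODE annotation of GRCh37. Other pseudocounts, filters, scalings, variance models, a replicate block, single libraries left out and a window of 200 kb were tried.

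Named genes were the members, SETD2, CCNE1, up to 4 genes of each list with the largest absolute log2 fold change among those past the threshold, the 3 nearest genes of each of the 3 members with the largest change, the neighbours of CDKN2A, and the most abundant cell type markers and those at 0. KRT7, KRT8, ELF3, MUC1, ESRP1, CLDN4, EPCAM, CDH1, CLDN7 and LAMP3 were named after their values were seen. So were CCNE2, CDKN2D and the genes that overlap members. The members and lists were chosen with earlier results of these data known. Some genes that this rule takes, and 1 list, are not reported here.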

Additional observations from a re-analysis of the deposited data

How the results depend on the processing

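Log2 fold changes of the members, SETD2, CCNE1, CCNE2 and CDKN2B and counts of calls, except neighbours, were recomputed under other pseudocounts, filters, scalings and variance models, with a replicate block and with each library left out. Shares and sums per kinase sum were recomputed only with each library left out, class sums also with median ratio scaling, and neighbour counts only within 200 kb. Of 520 values recomputed 466 kept their direction and side of the threshold, or, for counts, stayed within 1.5 times, or, for shares and sums, moved by less than 1 SD. The log2 fold changes of CCND1, CCND2, CDKN1A, CDKN2A and CDKN2C kept both under all 14 alternatives, from 4.50 to 4.90, -2.49 to -2.02, 2.73 to 3.20, -1.58 to -1.11 and -0.75 to -0.35. CCND3 kept both under 13, from 0.38 to 0.78, and gave no value with a mean FPKM of at least 5, nor did CDKN2B.

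With median ratio scaling CDK6 (0.25) and CDKN1B (0.10) reversed, CDK4 (0.43) and RB1 (0.50) passed the threshold, and CCNE1 (-0.16) did not. With quantile normalization CDK4 reversed (-0.074), CDKN1B (-0.15) no longer passed and RB1 (0.21) did. CCNE2 and CDKN2B passed upward with median ratio scaling (0.40 and 0.27) and with quantile normalization (0.26 and 0.38). The cause was not tested. With median ratio scaling 6 members were higher, and the higher and lower counts were 2 and 3 for E-type and A-type cyclins and CDK2 activators, 6 and 3 for pocket proteins and E2F, and 5 and 3 for ubiquitin ligases. The higher counts were then 1 for other inhibitors and 7 for E2F targets, and the lower count was 0 for G2/M genes. With quantile normalization the higher counts were 2 for E-type and A-type cyclins and 1 for other inhibitors. Median ratio scaling also moved the difference of the summed FPKM, shSETD2 minus control, to 166.4 for D-type cyclins, 9.57 for CDK4 and CDK6, -11.4 for the INK4 pair and 115.1 for the CIP/KIP pair.

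With a mean FPKM of at least 5, where fewer genes are tested, 2401 genes were higher and 3246 lower, the lower count was 0 for other inhibitors, and the higher count was 1 for ubiquitin ligases. Within 200 kb in place of 500 kb, where fewer genes lie, the higher counts were 0 around CCND1 (of 1 tested), CDK6 (of 4) and CDKN2C (of 1), 1 around CDKN1A (of 5) and CDKN1B (of 6) and 6 around CDK4 (of 19), and the lower counts were 1 around CCND2 (of 2) and CDKN2C, 2 around CDKN1B and 3 around RB1 (of 3).

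With single libraries left out, the log2 fold change ranged from 0.041 to 0.11 for CDK4, from -0.13 to -0.039 for CDK6, from 0.11 to 0.23 for RB1, from -0.83 to -0.45 for SETD2, from 0.031 to 0.14 for CCNE2 and from -0.0025 to 0.086 for CDKN2B. The lower counts ranged from 1 to 2 for other inhibitors and for G2/M genes. With the replicate block, RB1 (0.18) and SETD2 (-0.58) passed the threshold, the lower count of other inhibitors was 2, and 3733 genes were higher and 7243 lower. Libraries of the same number did not deviate together (correlations over genes of -0.02, 0.02 and -0.01). No control library correlated best with the shSETD2 library of its own number. No pairing by number was therefore seen, though so few libraries cannot exclude it. The shares of CDKN1A and CDKN2A, the sums per kinase sum, CCNE1, CCNE2 and CDKN2B were recomputed as alternatives chosen after seeing the data. Depth is unknown, which limits low values most.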
